A study of Mus musculus with 24 samples.

Results

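The mouse genes Sst, Npy, Nos1, Pvalb, Calb2, Vip, Cck and Th mark the interneurons of the striatum that do not use acetylcholine. These 8 genes were taken by symbol, through their Ensembl IDs, from the 37991 genes of the count table, and all 8 were found and passed the filter on low counts in both experiments. RNA was sequenced from the nucleus accumbens, the ventral part of the striatum, of C57BL/6J mice in 24 libraries, each made from the pooled mRNA of 4 mice, with 3 libraries in each of 8 groups. In the wild-type experiment, females and males without virus were either controls or stressed, which gave control females, stressed females, control males and stressed males. In the floxed experiment every mouse was stressed and carried Dnmt3a2lox/2lox, a Dnmt3a gene (for a DNA methyltransferase) with loxP sites that Cre recombinase can cut. These mice received either AAV-GFP, an adeno-associated virus with green fluorescent protein, or AAV-CRE, which gave GFP females, Cre females, GFP males and Cre males. No unstressed floxed mice were sequenced here, and the promoter of the virus, the cells it reached, the age of the mice and the length of the stress are not stated in the labels. The protocol names dorsal striatum beside nucleus accumbens for the tissue punches.

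Interneurons are a small minority among the medium spiny neurons that form most of the striatum, and they are told apart by what they release and which calcium-binding protein they hold. Somatostatin (Sst), neuropeptide Y (Npy) and neuronal nitric oxide synthase (Nos1) are found together in the low-threshold spiking type. Parvalbumin (Pvalb) marks fast-spiking cells, calretinin (Calb2) another type, and tyrosine hydroxylase (Th), the first enzyme of catecholamine synthesis, a type distinct from the dopamine axons that come from the midbrain. Vasoactive intestinal peptide (Vip) and cholecystokinin (Cck) mark interneurons that are sparse in the striatum and plentiful in cortex, where excitatory neurons also make Cck. The library holds the RNA of all cells of the punch, so fewer cells of a type and less RNA per cell cannot be told apart, and some of these genes are made by other cells as well.

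The start regions of 5 of the members are shown. Of these, 4 were chosen because they are the members called higher in Cre males, below. Th was added because it carries the same sequence element as Sst. Each is the 120 bases before the RefSeq transcription start (build GRCm38.p6), written 5′ to 3′ on the gene's strand. Capitals mark TGACG or its reverse complement CGTCA, the short form of the cyclic AMP response element, whose full form is the palindrome TGACGTCA. The short form is contained in the full form, so each full element counts under both.
Sst, chr16:23890845-23890964, minus strand: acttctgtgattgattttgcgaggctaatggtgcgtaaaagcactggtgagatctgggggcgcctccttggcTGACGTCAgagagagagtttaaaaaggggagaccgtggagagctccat
Npy, chr6:49822590-49822709, plus strand: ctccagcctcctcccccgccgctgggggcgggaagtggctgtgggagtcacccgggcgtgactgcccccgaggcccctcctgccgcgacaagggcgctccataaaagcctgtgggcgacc
Vip, chr10:5639098-5639217, plus strand: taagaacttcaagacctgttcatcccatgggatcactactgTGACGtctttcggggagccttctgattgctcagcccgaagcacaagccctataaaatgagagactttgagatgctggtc
Cck, chr9:121495695-121495814, minus strand: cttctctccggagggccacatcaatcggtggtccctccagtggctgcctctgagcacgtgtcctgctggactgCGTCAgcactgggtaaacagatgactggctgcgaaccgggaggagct
Th, chr7:142899996-142900115, minus strand: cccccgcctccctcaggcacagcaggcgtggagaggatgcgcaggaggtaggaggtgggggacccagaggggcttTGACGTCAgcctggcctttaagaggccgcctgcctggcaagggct
The full element begins 48 bases before the start of Sst and 45 bases before that of Th. Vip has a short form 79 bases and Cck one 47 bases before the start, and Npy has neither form. Over the whole RefSeq window of 250 bases before to 50 after a start, searched on both strands, 1.79% of 32851 promoters of all genes hold TGACGTCA and 20.8% hold TGACG. Nos1 has a short form 130 bases before its start, the 2 listed promoters of Pvalb have none, and no entry was listed for Calb2. A match is a string of letters and says nothing of what binds there.

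Depth differed between the experiments, at 7116123 to 12145551 counts per library in wild-type and 28132563 to 59829070 in floxed mice. Genotype, virus and depth all change with the experiment, so levels are set side by side only within one. Dnmt3a, the targeted gene, stood at 155, 150.4 and 139.7 CPM (counts scaled to a common library size, with TMM factors) in Cre females against 162, 169 and 154 in GFP females, and at 143, 137 and 138 CPM in Cre males against 181, 164 and 171 in GFP males. It was called lower in Cre males (log2 -0.30, SE 0.06, adjusted p = 0.0149, lower in 3 of 3) and not in Cre females (log2 -0.12, SE 0.06, adjusted p = 0.829). These are counts over the whole gene and do not isolate the flanked exons. Medium spiny neuron markers were high in every library (summed 3612 to 10305 CPM over 12 genes).
The Cre male libraries stood apart. Slc17a7, the vesicular glutamate transporter of cortical excitatory neurons, was at 428, 408 and 168 CPM in Cre males against 1.29 to 36.0 CPM in the other 9 floxed libraries and 4.70 to 108 CPM in the wild-type ones. Ttr, the transthyretin gene of the choroid plexus, was at 125, 1847 and 23.8 CPM in Cre males, and in the wild-type experiment it ran from 2.53 to 2280.4 CPM. Cre male 2 held the lowest sum of medium spiny neuron markers, 3612 CPM.

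The members covered a wide range of levels. Per length (CPM per kilobase of exon, mean ± SD over the 12 libraries of an experiment), Sst was highest at 278 ± 73.5 in wild-type and 155 ± 24.4 in floxed mice, followed by Npy at 97.4 ± 25.2 and 64.8 ± 10.1. The ranges of Sst, Npy and the next gene did not overlap in either experiment. In wild-type mice the order then ran Nos1 (12.3 ± 1.62), Calb2 (9.79 ± 2.20), Cck (6.53 ± 3.12), Pvalb (5.66 ± 3.05) and Th (4.42 ± 1.13), in which each gene's range overlapped that of the next, and Vip was lowest at 0.451 ± 0.213, apart from Th. In floxed mice Calb2 (9.90 ± 4.87), Cck (8.02 ± 11.4) and Nos1 (7.24 ± 1.12) overlapped in turn, and so did Th (4.26 ± 0.573), Pvalb (3.03 ± 2.04) and Vip (0.675 ± 0.809). The SD of Cck in floxed mice exceeds its mean because 3 libraries, all Cre males, were far above the rest. Vip rested on 7 to 31 counts per wild-type library, the fewest of the members, against 1044 to 3117 for Sst. The count of Nos1 can hold reads of Gm26995, which shares 268 exonic bases on the opposite strand, since it is not stated whether the counting used strand.

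**Figure D1:**
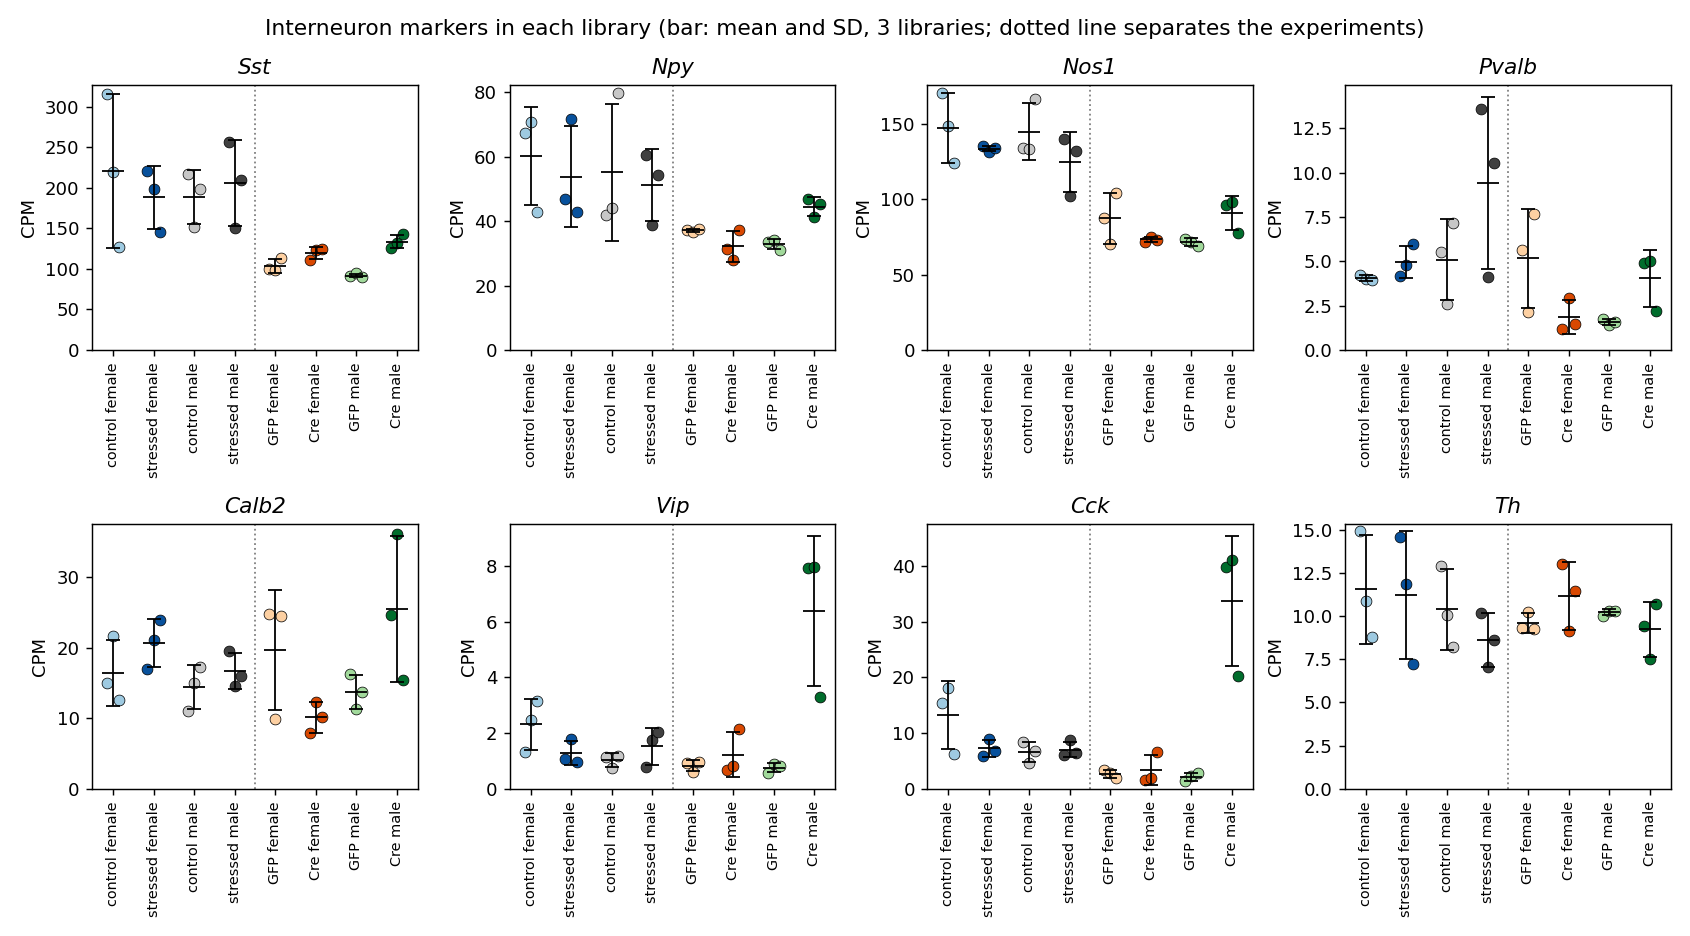
Level of each marker (vertical axis, CPM) in each of the 3 libraries of the 8 groups (points), with the mean and SD as bars and a dotted line between the wild-type and the floxed experiment. Cck and Vip stand out in the 3 Cre male libraries, at 20.3 to 41.1 and 3.28 to 7.96 CPM, while stressed and control pools of each sex overlap in all 8 panels.

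Ordered by their mean CPM, the wild-type groups of a member overlapped with the next group in the order for all 8 genes. In floxed mice Cre males were highest and apart from the next group for Sst, Npy, Vip and Cck. Below them, Sst ran from Cre females through GFP females, which overlapped, to GFP males, which were apart. Npy in GFP females lay above GFP males without overlap, while GFP males and Cre females overlapped. For Nos1, Pvalb, Calb2 and Th each floxed group overlapped with the next.

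The first comparison asked what stress did to these markers in wild-type mice. None of the 8 was called in either sex with edgeR's quasi-likelihood test at an adjusted p below 0.05, and in none did the 3 stressed libraries lie wholly above or below the 3 controls. The background was as sparse: 0% of the 15249 genes tested were called in females and 0.00656% in males, and groups did not overlap in 5.3% and 7.92% of all genes. At an unadjusted p below 0.05, 1 member passed in each sex, Cck in females and Pvalb in males, as did 1.68% of all genes in females and 2.82% in males. DESeq2 and limma-voom also called none.

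Among the markers of the low-threshold spiking type, Sst had a ratio of 2.50 between its highest and lowest wild-type pool. Sst stood at 315, 219.9 and 126 CPM in control females and at 221, 199 and 145 CPM in stressed females, so that the control pools enclosed the stressed ones (log2 -0.23, SE 0.29). In males it was at 216, 151 and 198 CPM in controls and 256, 151 and 209.9 CPM under stress (log2 0.12, SE 0.29). The groups thus overlapped in both sexes.

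Npy, the peptide that these cells hold beside somatostatin, was at 67.4, 70.8 and 42.9 CPM in control females and 46.8, 71.7 and 42.8 CPM in stressed females (log2 -0.16, SE 0.29). Its male pools were at 41.8, 44.1 and 79.7 CPM without and 60.5, 38.7 and 54.4 CPM with stress (log2 -0.11, SE 0.29). A single control male pool lay above the other wild-type pools. Nos1, which makes nitric oxide, had the smallest ratio of the highest to the lowest wild-type pool among the members (1.67), at 170.3, 148 and 124 CPM in control females and 135, 132 and 134 CPM in stressed females (log2 -0.14, SE 0.15). In males it was at 134, 134 and 166 CPM against 140.2, 102 and 132 CPM under stress (log2 -0.21, SE 0.15).

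Among the calcium-binding proteins, Pvalb was at 5.52, 2.60 and 7.14 CPM in control males and at 13.6, 4.12 and 10.6 CPM in stressed males. Stressed pools 1 and 3 were the highest of the wild-type experiment, and stressed pool 2 lay inside the control range (log2 0.88, SE 0.39, unadjusted p = 0.0398, adjusted p = 1.00, higher than every control in 2 of 3 pools). In females it was at 4.25, 4.01 and 3.95 CPM against 4.19, 4.78 and 5.97 CPM (log2 0.29, SE 0.41). Calb2 was at 15.1, 21.7 and 12.6 CPM in control females and 17.0, 21.1 and 23.9 CPM in stressed females (log2 0.33, SE 0.23). It was at 11.04, 15.1 and 17.2 CPM in control males and 19.6, 14.6 and 16.0 CPM in stressed males (log2 0.21, SE 0.23). Both calcium-binding markers had positive log2 differences in both sexes, and neither passed the test in either.

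Cck was at 15.4, 18.1 and 6.28 CPM in control females and at 5.95, 8.94 and 6.80 CPM in stressed females. Control pools 1 and 2 were high and the third lay among the stressed pools (log2 -0.86, SE 0.34, unadjusted p = 0.0244, adjusted p = 1.00). The same control pools 1 and 2 had the highest sums of the 10 cortical excitatory neuron markers in the experiment, 124 and 191 CPM, against 87.7 CPM in control pool 3 and 65.4 to 84.7 CPM in stressed females, and all 8 of the cortical genes tested had negative log2 differences there (median -1.27, against -0.0058 over all genes). With the mean level of the cortical list as a covariate the female difference of Cck was -0.026. The cortical sums did not overlap between control and stressed females, so this fit cannot fully separate the cortical level from stress. The part of cortical RNA in the Cck values was not tested further.

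In males Cck was at 8.33, 4.66 and 6.71 CPM in controls and 6.07, 8.67 and 6.36 CPM under stress (log2 0.09, SE 0.35). Vip was at 1.32, 2.47 and 3.14 CPM in control females and 1.08, 1.77 and 0.972 CPM in stressed females (log2 -0.82, SE 0.42), and at 1.15, 0.759 and 1.19 against 0.783, 1.73 and 2.05 CPM in males (log2 0.53, SE 0.44). Th was at 14.97, 10.9 and 8.81 CPM against 14.6, 11.9 and 7.22 CPM in females (log2 -0.04, SE 0.27). In males Th was at 12.9, 10.1 and 8.24 against 10.2, 7.04 and 8.62 CPM (log2 -0.27, SE 0.27). The groups overlapped for all 3 genes in both sexes. The wild-type female pools were taken as paired by number, and Vip was lower in the stressed pool of 3 of 3 pairs. An edgeR fit with the replicate number as a block gave log2 -0.79 (SE 0.38, adjusted p = 0.998). Females and males of the same number shared that block, so it is not a test within the female pairs alone. No other member had the same direction in all 3 pairs. The share of all genes with the same direction in all 3 pairs was not computed, and Vip rested on 7 to 31 counts per wild-type library. With SEs from 0.15 to 0.44, small changes of these members were not detectable with 3 pools a group.

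Averaged over the sexes, stress called 0 of the 8 (background 0.0131% of genes), and 0 passed an unadjusted p below 0.05, against 3.21% of all genes. The test of a different stress effect in females and males called 0 (background 0%), with 1 member and 1.19% of all genes at an unadjusted p below 0.05. Females against males called 0 (background 0.0393%), with 2 members and 5.04% of all genes at an unadjusted p below 0.05. These members were Pvalb (log2 -0.63, lower in females) and Cck (log2 0.53, higher in females). All 8 cortical genes tested were positive there as well (median 0.68, none called), and their part in the Cck value was not tested. DESeq2 and limma-voom called none of the 8 members in these comparisons either. Of the lists set beside the members, the 22 other striatal interneuron markers, the 6 genes of GABA synthesis and transport and the 13 tested receptors of the member peptides had none called under stress in either sex. Choroid plexus genes had negative log2 differences in stressed males in 10 of 10 (median -3.42, none called), with summed levels of 45.3 to 2684 CPM in control males and 80.1 to 198 CPM in stressed males. A fit with the choroid plexus level as a covariate called no member. Since none was called without it either, that result cannot show the part of choroid plexus genes in the member values, which was not tested.

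The second comparison asked what Cre did in stressed floxed mice. In males 4 of the 8 members rose with Cre: Cck by 15.9-fold, Vip by 8.42-fold, Sst by 1.46-fold and Npy by 1.35-fold, and none fell. The background was high, since 4.96% of 17597 genes were called in males and 3.68% were called higher. In 6 members all 3 Cre pools lay above all 3 GFP pools, against 14.7% of all genes in that direction and 29.4% in either. The median log2 difference of the 8 was 0.72, against 0.0046 over all genes tested.

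Cck was at 1.36, 2.19 and 2.73 CPM in GFP males and at 39.8, 41.1 and 20.3 CPM in Cre males (log2 3.99, SE 0.55, adjusted p = 0.00813, higher in 3 of 3). Vip was at 0.577, 0.875 and 0.815 CPM in GFP males and 7.93, 7.96 and 3.28 CPM in Cre males (log2 3.07, SE 0.47, adjusted p = 0.00923, higher in 3 of 3). For both genes Cre males 1 and 2 were nearly level and Cre male 3 was lower, but still above every other floxed library.

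Sst was at 90.6, 94.4 and 90.04 CPM in GFP males and 126, 132 and 143 CPM in Cre males (log2 0.54, SE 0.07, adjusted p = 0.00388, higher in 3 of 3). Npy was at 33.5, 34.1 and 31.0 CPM against 46.8, 41.2 and 45.5 CPM (log2 0.44, SE 0.09, adjusted p = 0.0226, higher in 3 of 3). For these 2 peptides the pools of each male group lay close together, and Sst was highest in Cre male 3, the pool in which Cck and Vip were lowest. Leaving out 1 pool at a time, Sst and Cck were called in all 12 fits. Npy was lost without GFP male 1, 2 or 3 or Cre male 1 (adjusted p over the 12 fits from 0.0100 to 0.0947), and Vip without GFP male 2 (adjusted p = 0.0524). Without Cre male 2, the pool with the most choroid plexus RNA, the same 4 members were called.

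Nos1, the third marker of the low-threshold spiking type, was at 73.9, 71.8 and 68.8 CPM in GFP males and at 96.2, 98.3 and 77.7 CPM in Cre males. The groups did not overlap, but it did not pass (log2 0.35, SE 0.12, adjusted p = 0.123). It was called without Cre male 3 (adjusted p = 0.0498), where 7.29% of all genes were called. Pvalb, at 1.73, 1.38 and 1.55 CPM against 4.93, 5.02 and 2.20 CPM, did not overlap either and did not pass (log2 1.39, SE 0.49, adjusted p = 0.123). DESeq2, which called 11.7% of the genes it tested, called Pvalb too (adjusted p = 0.0343) beside the 4 members above.

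Calb2 was at 16.2, 11.4 and 13.7 CPM in GFP males and 24.7, 36.2 and 15.5 CPM in Cre males (log2 0.89, SE 0.38, adjusted p = 0.185). Cre male 3 lay inside the GFP range. Th, at 10.02, 10.3 and 10.3 CPM against 9.46, 7.55 and 10.7 CPM, was the only member with a negative value in males (log2 -0.15, SE 0.14, adjusted p = 0.537), and with the cortical or the choroid plexus covariate this value was 0.054 or 0.17.

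**Figure D2:**
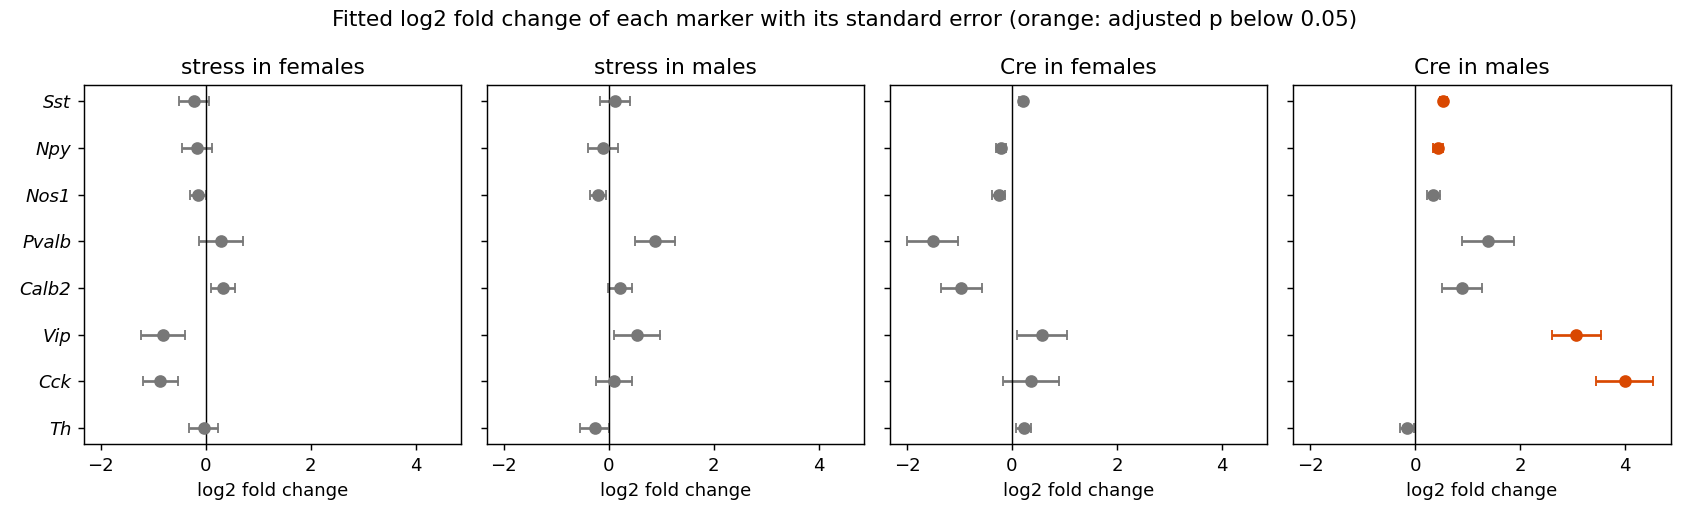
Fitted log2 fold change (horizontal axis) of each marker in 4 comparisons, of stress and of Cre within each sex, with bars of 1 standard error and orange points at an adjusted p below 0.05. Orange points occur only in Cre males, for Sst, Npy, Vip and Cck, with Cck at 3.99 and Vip at 3.07.

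Markers of cortical excitatory neurons were higher in the same Cre male pools. All 10 had positive values and 9 of the 10 were called higher (median log2 4.83), with the smallest p for Emx1 (log2 3.64), Neurod1 (5.98) and Slc30a3 (5.59). Their summed level was 571, 573 and 247 CPM in Cre males against 31.7 to 46.5 CPM in GFP males. The choroid plexus list had positive values in 9 of 9 tested (median 4.61, none called), with sums of 178, 2093 and 76.1 CPM against 54.9 to 72.6 CPM. Medium spiny neuron markers had negative values in 12 of 12 (median -0.33, none called), and oligodendrocyte markers positive ones in 8 of 8 (median 0.23, none called, smallest p over all comparisons for Cldn11 in the wild-type sex comparison, adjusted 0.971). No gene of the septal, pallidal, hypothalamic and thalamic list was called in any comparison (Gal, adjusted 0.123). When the cortical level was added as a covariate, no gene at all was called in males, members included, and that level did not overlap between the male groups. In that fit Cck had a log2 difference of 0.76 (SE 0.42), Vip of 0.34 (SE 0.68) and Npy of 0.23 (SE 0.21), while Sst was at 0.60 (SE 0.17), all with an adjusted p of 1.00. With the choroid plexus level as a covariate no member was called among 8 genes in all, at 0.57 for Sst (SE 0.09, adjusted p = 0.0581), 0.56 for Npy (SE 0.11, adjusted p = 0.117), 2.52 for Vip (SE 0.59, adjusted p = 0.171) and 3.57 for Cck (SE 0.71, adjusted p = 0.154).

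**Figure D3:**
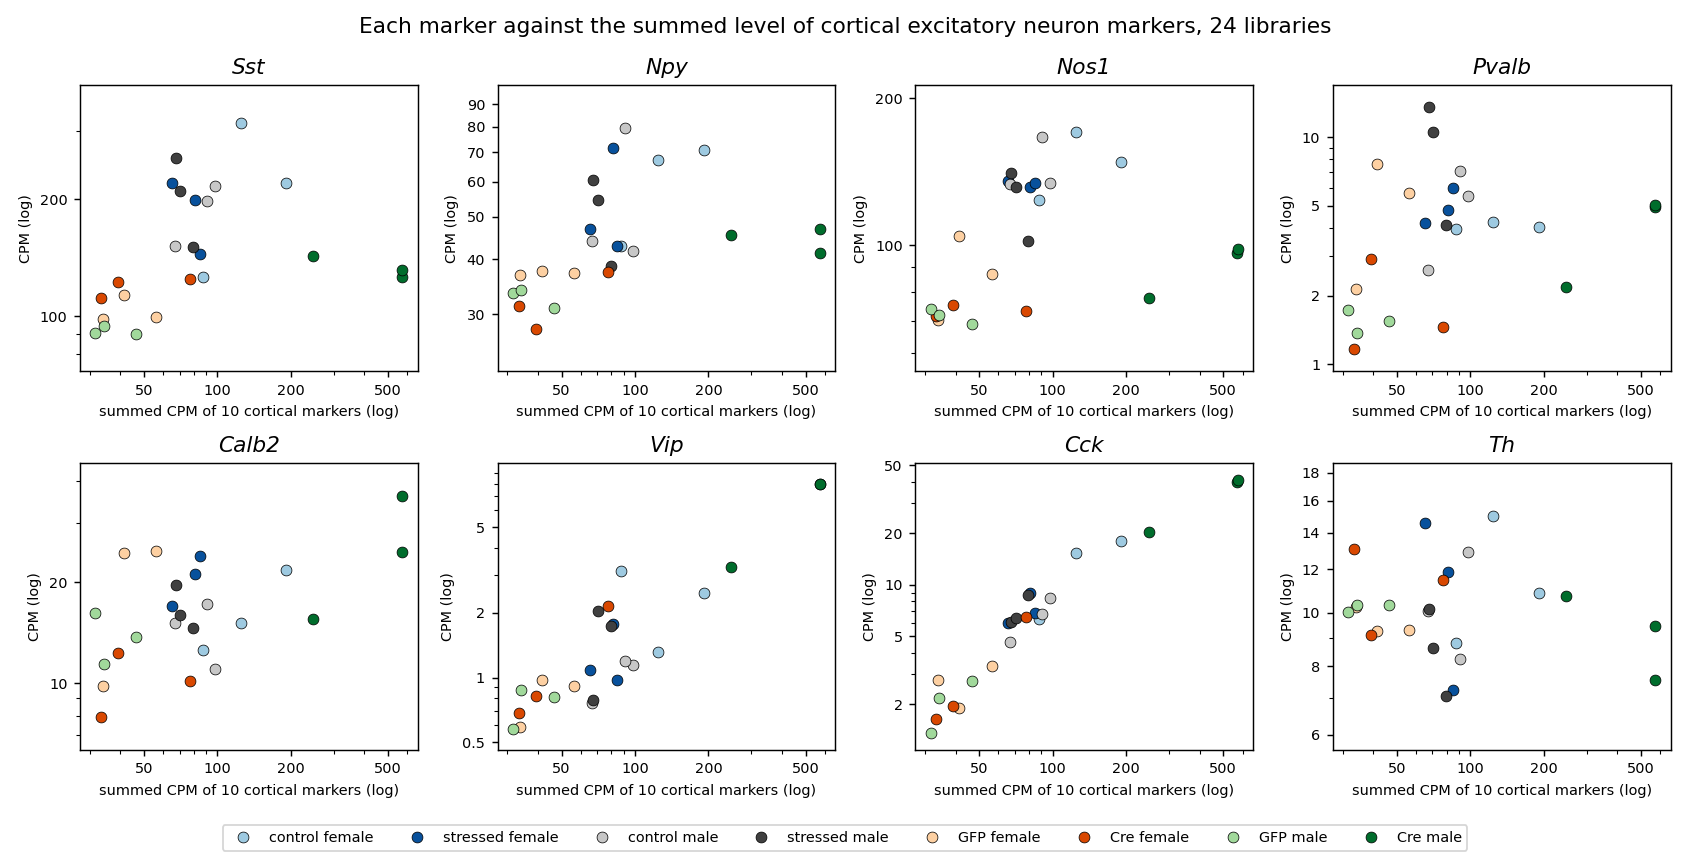
Level of each marker (vertical axis, CPM, log scale) against the summed CPM of 10 cortical excitatory neuron markers (horizontal axis, log scale) in the 24 libraries, coloured by group. Cck is higher where the cortical sum is higher, up to the Cre males at 247 to 573 CPM, and within the Cre males Sst is highest in the pool with the lowest sum.

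In females none of the 8 members was called with Cre, against a background of 0% of genes called and 11.5% without overlap between the groups. No member's groups were apart, and 4 had an unadjusted p below 0.05, namely Sst, Npy, Pvalb and Calb2, against 5.96% of all genes. DESeq2 and limma-voom called none. Cck was at 3.35, 2.77 and 1.91 CPM in GFP females and 1.64, 1.96 and 6.51 CPM in Cre females (log2 0.36, SE 0.54). Vip was at 0.915, 0.590 and 0.972 against 0.682, 0.819 and 2.15 CPM (log2 0.58, SE 0.48). In both genes Cre female 3 alone was high, and that pool also had the highest cortical sum of the female floxed pools, 77.5 CPM against 33.4 to 56.2 CPM.

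Sst was at 99.4, 98.1 and 113 CPM in GFP females and 111, 123 and 124 CPM in Cre females, with Cre female 1 below GFP female 3 (log2 0.21, SE 0.07, unadjusted p = 0.0110, adjusted p = 0.678). Npy, at 37.1, 36.7 and 37.6 against 31.4, 27.8 and 37.3 CPM, had the opposite sign (log2 -0.21, SE 0.09, adjusted p = 0.825). Pvalb was at 5.66, 2.15 and 7.66 CPM in GFP females and 1.16, 2.92 and 1.46 CPM in Cre females (log2 -1.51, SE 0.49, adjusted p = 0.674). Calb2 had the same high and low GFP pools, at 24.8, 9.82 and 24.5 against 7.91, 12.3 and 10.1 CPM (log2 -0.97, SE 0.39, adjusted p = 0.820). GFP female 2 was the low pool and GFP females 1 and 3 the high ones for both genes.

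The same contrast of GFP pools was seen in Nos1, at 87.3, 70.2 and 104 CPM in GFP females and 71.5, 75.2 and 73.2 CPM in Cre females (log2 -0.25, SE 0.12, adjusted p = 0.852). Th ran the other way at 9.29, 10.3 and 9.28 against 13.04, 9.12 and 11.5 CPM (log2 0.22, SE 0.14, adjusted p = 0.872). The list of septal, pallidal, hypothalamic and thalamic markers was at 119, 71.8 and 223 CPM in GFP females and 88.8, 261 and 62.7 CPM in Cre females. Its part in the female values was not tested.

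Averaged over the sexes, 3 members were called, all higher with Cre, against 1.42% of genes: Sst (log2 0.37, SE 0.05, adjusted p = 0.00716), Vip (log2 1.83, SE 0.33, adjusted p = 0.0282) and Cck (log2 2.18, SE 0.38, adjusted p = 0.0288). Only Sst was called in this average with limma-voom, the replicate block or the choroid plexus covariate, and none with the cortical covariate. Without the filter on low counts Cck was lost (adjusted p = 0.0575). Leaving out 1 pool at a time left Sst alone called without GFP female 1 or 2, any GFP male, or Cre male 1 or 2, and without Cre female 3 Vip was lost (adjusted p = 0.0623). The female pools of Sst with Cre averaged 119 ± 7.14 CPM against 104 ± 8.31 (SD, n = 3 libraries), and the male pools 133 ± 8.43 against 91.7 ± 2.38.

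Whether Cre acted differently in females and males was tested directly. None of the 8 members was called by edgeR, against a background of 0.0114%, while 7 of 8 had an unadjusted p below 0.05 and a lower value in females, against 17.5% of all genes at that p in either direction. The differences, female minus male, were -3.64 for Cck (SE 0.76, adjusted p = 0.0870), -2.89 for Pvalb (SE 0.69, adjusted p = 0.105), -2.50 for Vip (SE 0.67, adjusted p = 0.126) and -1.86 for Calb2 (SE 0.55, adjusted p = 0.164). They were smaller for Npy (-0.64, SE 0.13, adjusted p = 0.0767), Nos1 (-0.60, SE 0.17, adjusted p = 0.152) and Sst (-0.34, SE 0.10, adjusted p = 0.145), and Th was at 0.38 (SE 0.20, adjusted p = 0.347). The call depended on the tool and on single pools: DESeq2 called all but Th, where it called 3.45% of all genes. limma-voom called none. Without Cre male 3, edgeR called Npy, Nos1, Pvalb, Vip and Cck, where it called 2.8% of all genes. Without GFP female 2 it called Nos1 and Pvalb and 0.806% of all genes, and without Cre female 3 Npy and Cck and 0.112% of all genes. In the female-minus-male difference the 10 cortical excitatory neuron markers were all negative as well (median -4.29, none called). With the cortical level as a covariate edgeR called no gene. Over the fits that kept all libraries, Vip ran from -2.60 to -0.033 and Cck from -3.85 to -0.74. The part of cortical RNA in these differences was not tested further. Females against males over both viruses gave no call in edgeR (background 0.0682%), 3 members at an unadjusted p below 0.05 (6.68% of all genes), and with DESeq2 a call for Cck, where it called 0.537% of all genes.

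Genes that work with the members were followed as lists. Over all genes tested, 3.68% were called higher in Cre males, with a median log2 difference of 0.0046. In the average over the sexes 1.42% were called. With the cortical level as a covariate no gene was called in either comparison. Of the 22 other striatal interneuron markers, 2 were called higher in Cre males, Crhbp, a corticotropin-releasing hormone binding protein (log2 1.56, SE 0.23, adjusted p = 0.00779), and Npas1, a transcription factor (log2 2.92, SE 0.62, adjusted p = 0.0277), and 20 of 22 had positive values (median 0.34). Averaged over the sexes Slc17a8, a vesicular glutamate transporter that some interneurons use, was called lower (log2 -0.35, SE 0.07, adjusted p = 0.0322). Of 13 receptors tested, 4 were called higher in Cre males: the somatostatin receptors Sstr3 (log2 2.07, SE 0.42), Sstr1 (log2 1.71, SE 0.36) and Sstr4 (log2 0.43, SE 0.10), and the cholecystokinin receptor Cckbr (log2 0.53, SE 0.13), with adjusted p from 0.0240 to 0.0411. Cckbr was also called in the average over the sexes (log2 0.43, SE 0.09, adjusted p = 0.0464). The median of the list in males was 0.07.

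Of 9 genes that process or store peptide precursors, 2 were called higher in Cre males: Pcsk1n, which inhibits the proprotein convertase Pcsk1 (log2 1.72, SE 0.31, adjusted p = 0.0189), and Chgb, a granin of secretory vesicles (log2 0.39, SE 0.09, adjusted p = 0.0304). Pcsk1n was also called in the average over the sexes (log2 1.34, SE 0.22, adjusted p = 0.0242). Of 11 catecholamine genes tested, Spr, which makes the cofactor of tyrosine hydroxylase, was the one called in males (log2 0.49, SE 0.11, adjusted p = 0.0280). The share of all genes called higher in Cre males was 3.68%. None was called in any of the 10 comparisons among the 6 genes of GABA synthesis and transport (smallest p for Abat, adjusted 0.108), the 8 of nitric oxide signalling (Pde5a, adjusted 0.141), the 3 cholinergic interneuron markers (Chat, adjusted 0.585) or the 12 medium spiny neuron markers (Pde10a, adjusted 0.985). The 5 midbrain dopamine neuron markers, which could bring Th from fibres, had 2 genes tested in floxed mice and none called (Slc6a3, adjusted 0.288).

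Within groups, a few pairs covaried across pools, some in the same and some in opposite directions. Deviations of log2 CPM from the group means were correlated over the 12 libraries of each experiment, for 44 pairs in each (28 pairs of members, and each member with the cortical and with the septal list) and 88 in all, with an exact permutation within groups, two-sided, whose smallest p is 0.000772. By Pearson's r, 4 pairs passed after Benjamini-Hochberg adjustment over the 88, all in floxed mice. These were Pvalb with Calb2 (r = 0.92, adjusted p = 0.0340, rho = 0.88, adjusted p = 0.0566), Pvalb with Th (r = -0.77, adjusted p = 0.0340, rho = -0.86, adjusted p = 0.0340), Calb2 with Th (r = -0.76, adjusted p = 0.0340, rho = -0.86, adjusted p = 0.0407) and Cck with the cortical list (r = 0.94, adjusted p = 0.0340, rho = 0.97, adjusted p = 0.0340). By rank, 5 pairs passed, which added Th with the septal list (rho = -0.92, adjusted p = 0.0407, r = -0.80, adjusted p = 0.0981) in floxed mice and Sst with Th in wild-type mice (rho = 0.86, adjusted p = 0.0407, r = 0.80, adjusted p = 0.0934), and dropped Pvalb with Calb2. Without the 2 libraries farthest from the median of the first gene, r was 0.80 for Pvalb with Calb2, -0.77 for Pvalb with Th, -0.78 for Calb2 with Th and 0.91 for Cck with the cortical list, with an unadjusted permutation p from 0.00463 to 0.0139 and none past the adjustment.

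**Figure D4:**
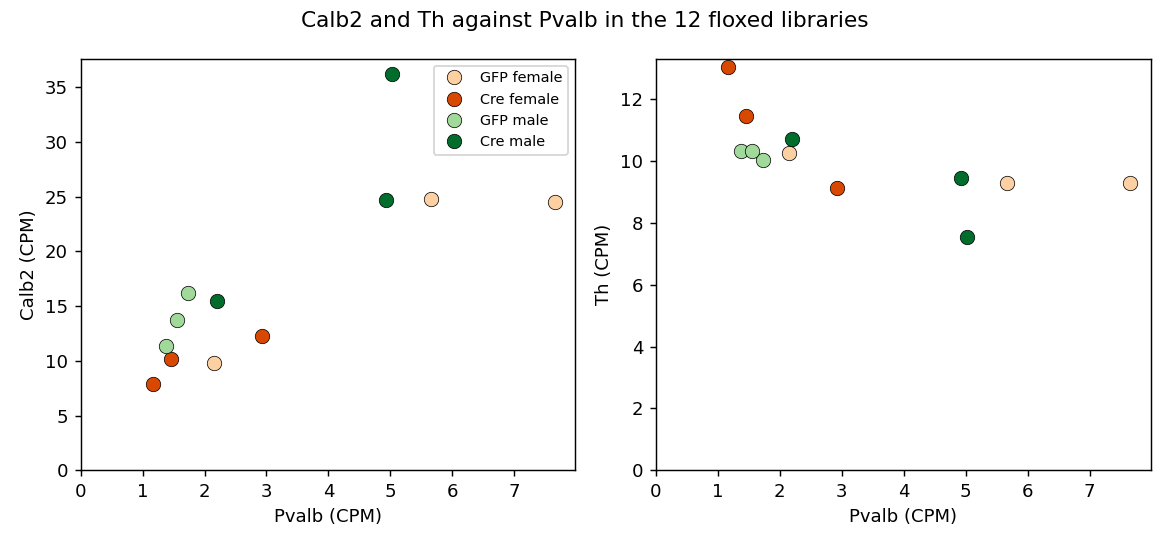
Level of Calb2 (left, CPM) and of Th (right, CPM) against that of Pvalb (CPM) in the 12 floxed libraries, coloured by group. Calb2 is high where Pvalb is high, up to 36.2 CPM, and Th is lowest, at 7.55 CPM, in the Cre male pool with 5.02 CPM of Pvalb.

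Other pairs had an unadjusted permutation p below 0.05 (17 of the 88 by r, those above included) and did not pass the adjustment. Nos1 with Pvalb was at r = 0.88 in floxed pools (adjusted p = 0.0679) and 0.71 in wild-type pools (adjusted p = 0.0934), and Nos1 with Calb2 at r = 0.86 in floxed pools (adjusted p = 0.0934). In floxed pools the septal list was at r = 0.81 with Pvalb (adjusted p = 0.178) and 0.80 with Calb2 (adjusted p = 0.142). Within the low-threshold spiking type, in wild-type pools, Sst with Nos1 was at r = 0.78 (adjusted p = 0.184) and Npy with Nos1 at r = 0.78 (adjusted p = 0.172). Cck with the cortical list was at r = 0.80 in wild-type pools (adjusted p = 0.142), and Vip with it at r = 0.81 in floxed pools (adjusted p = 0.164). Sst had an r of -0.035 in wild-type and -0.12 in floxed pools with that list. These r leave out differences between groups. With the group means kept, the r of Sst with the cortical list was 0.072 in wild-type and 0.71 in floxed pools. All libraries of an experiment share a scaling by depth.

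The genes most like each member were ranked by the lower of its 2 Pearson r over all log2 CPM values, one in the 12 wild-type and one in the 12 floxed libraries, among 12684 genes. Sst was most like Nr1h2 (lower r 0.93), 1110008P14Rik (0.93) and D8Ertd738e (0.89), and Npy like Cdc37 (0.73), Apba1 (0.71) and Fabp3 (0.70). Nos1 was most like Clip3 (0.88) and Abca7 (0.86), Pvalb like Vamp1 (0.84), Fndc5 (0.83) and Nacc2 (0.81), and Calb2 like Smyd2 (0.87), Gabrq (0.84) and Car10 (0.80). Vip was most like Kctd6 (0.72), Mfsd4a (0.71) and Zfp697 (0.70), and Cck like Nptx1 (0.85), Nxph3 (0.84) and Basp1 (0.83). Th was most like Asic4 (0.86), Rap1gap (0.86) and Drd2 (0.86), the dopamine receptor of the indirect-pathway medium spiny neurons. These values describe 12 libraries an experiment and carry no test.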

How the data were processed

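Raw counts per Ensembl gene were deposited by the authors in 1 table of 37991 genes and 24 libraries, unscaled, with no columns left unused. The submitters' processing notes name Bowtie2 2.1.0, TopHat2 2.0.9, HTSeq 0.6.0 and the builds NCBIM37 and mm9, without settings or strand. Symbols (32919 IDs matched), exon lengths and overlaps came from GENCODE M21. Since that annotation is on GRCm38, no coordinates of counted genes are given.

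Each experiment was fitted alone in R 4.3.3 with edgeR 4.0.16: filterByExpr (minimum count 10), TMM factors, a mean for each of 4 groups and the robust quasi-likelihood F test, with Benjamini-Hochberg adjustment over all genes tested (15249 wild-type, 17597 floxed) and a call at an adjusted p below 0.05. The model was tested on simulated data. Alternatives were DESeq2 1.42.0, limma-voom (limma 3.58.1), RLE factors, no filter, the labels' replicate number as a block, cortical and choroid plexus covariates, and each library left out. The members and lists were chosen with earlier results of these data known. Named beside the 8 members were, from each of 13 lists, up to 4 called genes or else that of smallest p, the 3 genes most like each member (mean log2 CPM of at least 1), Dnmt3a, Slc17a7 and Ttr. Slc18a3 and Lhx8, of the cholinergic list, were not analysed here. A few genes that this rule would name are not reported here. Same-numbered deviations correlated at r = 0.59, 0.33 and 0.52 in wild-type females, so those pools were taken as paired. The block, which females and males of the same number shared, changed no call there. In the other 3 comparisons at least 1 of the r was not above 0.1. Libraries are pools of 4 mice, so p-values measure the spread between pools.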

Additional observations from a re-analysis of the deposited data

How the results depend on the processing

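Of the counts of members called, those of 0 under stress, between the wild-type sexes and in Cre females stayed at 0 in every alternative run. The 4 called in Cre males were 4 with limma-voom, RLE factors, no filter and the replicate block, 5 with DESeq2, 0 with the cortical or the choroid plexus covariate, and 2 to 5 when 1 library was left out. The 3 called over both sexes became 1 with limma-voom, the replicate block or the choroid plexus covariate, 2 with no filter, 0 with the cortical covariate, and 1 to 3 when 1 library was left out. The 0 of the female-minus-male difference became 7 with DESeq2 and 0 to 5 when 1 library was left out. Females against males in floxed mice gave 1 with DESeq2. Over all genes DESeq2 called 1811 in Cre males against 872, 652 against 249 over both sexes and 34 against 0 in Cre females. The 4 correlated pairs became 20 when group means were kept. In that run the libraries of an experiment were shuffled freely and not within groups, so differences between groups counted as covariation. The 4 pairs became 0 without the 2 libraries farthest from the median (fewer libraries, and a coarser permutation) and 0 to 5 when 1 library was left out. The replicate block moved no other count. In floxed mice, whose numbers do not pair, it changed the calls of Vip (adjusted p = 0.0685) and Cck (adjusted p = 0.0652) over both sexes. Over all genes it took the calls in Cre males from 872 to 515 and over both sexes from 249 to 87. Own-numbered pools matched best in 3 of 3 numbers in wild-type males, 1 of 3 in floxed females and 1 of 3 in floxed males.

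Signs turned only in values that were not called. With the cortical covariate Npy under stress in females was at 0.089 and Th in Cre males at 0.054, and with the choroid plexus covariate Th was at 0.17 in Cre males and 0.024 in stressed females and Npy at 0.18 in stressed males. Leaving out 1 library gave -0.51 to 0.12 for Sst and -0.27 to 0.19 for Th in stressed females, -0.065 to 0.30 for Sst, -0.28 to 0.26 for Npy and -0.095 to 0.29 for Cck in stressed males, and -0.15 to 0.87 for Vip and -0.58 to 0.70 for Cck in Cre females. The cause of these changes was not tested. Depth limits Vip most, at 7 to 31 counts in wild-type libraries.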
